A study of Mus musculus with 2 samples.

Results

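Mitochondrial biogenesis, dynamics and mitophagy were followed through 10 genes, Ppargc1a, Ppargc1b, Tfam, Nrf1, Opa1, Mfn1, Mfn2, Dnm1l, Fis1 and Pink1. They were picked by name, for their known roles, from the 35275 genes of an RNAseq count table, and all 10 were listed. The table holds 1 library of control AML12 cells and 1 library of AML12 cells made senescent with hydrogen peroxide, and each library was made from the pooled RNA of 3 samples. AML12 is a non-transformed hepatocyte line established from a mouse carrying a transgene for human transforming growth factor alpha, and the labels give its source as liver of a male CD-1 mouse aged 3 months. Control cells were untreated. The senescent cells had received peroxide in serum-free medium for 1 h per day over 6 days, at sublethal doses, the first the highest. Each exposure was followed by 23 h of recovery in complete medium, which contained dexamethasone and serum. The study's methods do not say whether control cells also had the daily hour without serum. Since each condition had 1 library, no difference could be checked against replicates and no p-value was computed. All ratios therefore compare 2 libraries, and their 95% intervals (Clopper-Pearson, on how a gene's reads divide between the libraries) cover counting error only. They treat each read as an independent molecule, which reads copied by PCR are not, so they may be too narrow even for that error.

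Mitochondria are built from products of the nuclear and the mitochondrial genome, and biogenesis is the supply of both. PGC-1 alpha and PGC-1 beta, encoded by Ppargc1a and Ppargc1b, are coactivators that dock on transcription factors such as NRF1 and the estrogen-related receptors, and NRF1 in turn drives nuclear genes for mitochondria, among them the mitochondrial DNA packaging and transcription factor TFAM. Mitochondria also fuse and divide. MFN1 and MFN2 fuse the outer membranes and OPA1 the inner ones, whereas the dynamin DRP1 (Dnm1l) constricts the organelle at sites marked by outer membrane proteins, of which FIS1 is one. Damaged mitochondria are removed by mitophagy, in which the kinase PINK1 collects on the outer membrane when membrane potential is lost. In liver, PGC-1 alpha is best known for its induction by fasting, together with genes of fatty acid oxidation and gluconeogenesis.

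The 250 bases before the annotated start site are shown for 4 of the genes, 2 of biogenesis, 1 of fusion and 1 of mitophagy. Ppargc1a was the only one of the 10 past the threshold of the comparison, and Tfam, Opa1 and Pink1 are among those that were not. The sequences are RefSeq promoter windows on GRCm38.p6, written 5′ to 3′ on the strand of the gene, and capitals mark a match to the NRF1 site GCGCANGCGC or to the ETS core CCGGAAG that GABP recognises. The Ppargc1a window lies at chr5:51567726-51567975 on the minus strand, Tfam at chr10:71238045-71238294 on the minus strand, Opa1 at chr16:29579084-29579333 on the plus strand and Pink1 at chr4:138326297-138326546 on the minus strand.
Ppargc1a: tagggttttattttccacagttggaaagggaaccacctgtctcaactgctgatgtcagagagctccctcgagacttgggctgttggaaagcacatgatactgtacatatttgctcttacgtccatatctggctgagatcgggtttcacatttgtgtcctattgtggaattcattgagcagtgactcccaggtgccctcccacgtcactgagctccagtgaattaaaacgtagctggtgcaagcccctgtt
Tfam: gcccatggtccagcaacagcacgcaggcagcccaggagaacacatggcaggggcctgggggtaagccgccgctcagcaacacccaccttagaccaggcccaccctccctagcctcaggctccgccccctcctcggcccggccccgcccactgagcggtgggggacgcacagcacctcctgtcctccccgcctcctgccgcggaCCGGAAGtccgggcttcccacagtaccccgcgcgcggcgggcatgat
Opa1: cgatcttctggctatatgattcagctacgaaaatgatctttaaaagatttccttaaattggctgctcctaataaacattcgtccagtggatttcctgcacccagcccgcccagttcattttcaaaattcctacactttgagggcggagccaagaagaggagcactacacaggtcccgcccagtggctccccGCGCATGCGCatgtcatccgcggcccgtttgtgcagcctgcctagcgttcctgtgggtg
Pink1: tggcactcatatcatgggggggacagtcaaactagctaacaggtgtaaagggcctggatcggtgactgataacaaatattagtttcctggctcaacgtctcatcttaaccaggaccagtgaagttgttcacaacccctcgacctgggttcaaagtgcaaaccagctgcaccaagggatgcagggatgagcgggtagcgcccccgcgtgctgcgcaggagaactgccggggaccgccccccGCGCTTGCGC

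Promoter windows of 300 bases, which add 50 bases after the start, matched 9 of the 10 genes, and Ppargc1b had no entry. Both strands were searched. The NRF1 site was in the windows of 2 of the 9 genes, Opa1 and Pink1, and in those of 5.19% of all 27025 genes with a window. The ETS core was in the windows of 4 of the 9 genes, Tfam, Mfn1, Dnm1l and Fis1, against 9.93% of all genes. In Tfam the core began 47 bases before the start and in Opa1 the NRF1 site began 59 bases before it. None of the 9 genes matched the cyclic AMP response element TGACGTCA, found in 2.03% of all genes, or the core TCACGTGA of the lysosomal gene motif read by TFEB, found in 1.12%. No match overlapped another. The 250 bases before the Ppargc1a start held 48.0% G and C and 5 CpG dinucleotides, whereas Tfam held 72.0% and 19. Low values were not particular to Ppargc1a. The second window of Nrf1 held 43.2% and 2, against 76.0% and 33 in its first, and the second of Dnm1l held 47.6% and 8. Nrf1 and Mfn2, like Ppargc1a, matched none of the motifs. Neither is among the windows shown, where Tfam, Opa1 and Pink1 each hold a match. Such matches describe letters and show neither binding nor its absence.

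The libraries held 28021941 control and 25738075 senescent reads on 17403 and 17592 genes. Counts were scaled by TMM factors of 1.04 and 0.964, and 14383 genes with at least 10 reads over both libraries were compared. A gene passed the threshold when its log2 ratio of senescent over control was beyond 1.5 in either direction and its interval left out 0. Of all genes compared, 2.71% passed it as higher and 5.60% as lower. A 2-fold threshold was passed by 5.09% as higher and 9.98% as lower, and a 1.5-fold threshold by 12.0% and 18.0%. Total-count scaling lowered every log2 ratio by about 0.107, and the values below carry that uncertainty. AML12 identity was checked with 14 hepatocyte markers, of which 13 had enough reads, 2 passing the threshold as higher and 2 as lower. Hnf4a, a transcription factor of hepatocytes, had 8187 and 7705 reads, while Alb (albumin) fell from 32076 to 2917 (log2 ratio -3.23) and Apoa1 from 2026 to 197. Cps1, of the urea cycle, rose from 19 to 55 reads, whereas Ass1, of the same cycle, fell from 316 to 106 (-1.34). Cyp2e1 rose from 0 to 50 reads, at least 19.5-fold, and Asgr1 was near 0 with 2 and 1. At 2-fold, 2 of the 13 markers were higher and 4 were lower. The summed hepatocyte markers went from 8550 to 10202 CPM (counts scaled to a common library size), of which the keratins Krt8 and Krt18 took most. Krt8 rose from 4106 to 5838 CPM and Krt18 from 1393 to 2457. Among the other abundant markers, Apob rose from 762 to 1012 CPM, but Alb fell from 1103 to 118 and Ttr from 796 to 423. The higher sum therefore does not mean that the markers rose together. Of 8 macrophage markers, Adgre1, Clec4f and Marco had no read in either library, and of the 4 with enough reads 2 passed as higher, Ptprc with 27 and 76 and Csf1r with 15 and 40. Cd14 had most of the reads of that list, 5551 and 1879 (-1.33), and the summed macrophage markers went from 194 to 82.1 CPM. Of 8 fibroblast markers, Col1a2, Col3a1 and Lum had no read, and the 2 with enough reads passed in opposite directions, Col1a1 with 21 and 1 and Reln with 0 and 12. Their sum was 0.928 CPM in control cells and 0.806 in senescent cells. Their part in the values below was not tested. In such bulk RNA, fewer cells that express a gene and less of its RNA per cell cannot be told apart.

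All 10 genes had at least 10 reads over both libraries. Levels were compared as RPKM, that is scaled reads per kilobase of exon, with exon lengths from GENCODE M21 and exact Poisson intervals, and they spanned a wide range. Fis1 had the highest level in both libraries, 55.3 RPKM (53.2 to 57.4) in control cells and 45.0 (43.0 to 47.1) after peroxide. Dnm1l followed with 15.9 and 22.7. In the control, Dnm1l and Pink1 (15.7) could not be separated within their counting intervals, nor could Mfn1 (9.38), Mfn2 (8.81) and Opa1 (8.33) between neighbours. Tfam stood between these groups at 10.7, and Nrf1 below them at 3.32. The coactivators were the lowest, with 0.548 for Ppargc1a and 0.508 for Ppargc1b, whose intervals overlapped, and 17.8% and 17.0% of the genes compared had a lower level. In the senescent library Tfam (14.6) stood above Pink1 (11.4), and the intervals of Pink1 and Mfn2 (11.0), and of Mfn2 and Mfn1 (10.1), overlapped. Ppargc1a moved to the last place with 0.0979 (0.0559 to 0.159), below Ppargc1b at 0.627 (0.480 to 0.803).

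**Figure D1:**
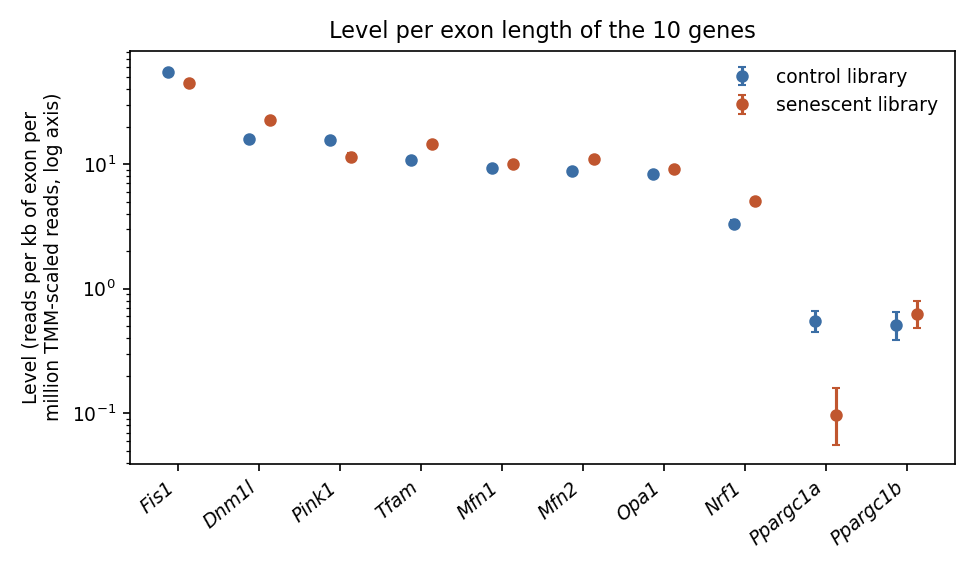
Level of the 10 genes in RPKM, TMM-scaled (log axis), in the control library (blue) and the senescent library (orange), with exact 95% Poisson intervals of the counts. Ppargc1a drops from 0.548 to 0.0979, while the points of each other gene lie much closer together.

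Of the 10 genes, 1 was lower past the threshold (Ppargc1a) and none was higher, and the median log2 ratio was 0.21, beside -0.02 over all genes compared. At 1.5-fold, Nrf1 was added as higher, but not with total-count or upper-quartile scaling, where its ratio was 0.49 or 0.56. Ratios were above 0 for 7 genes and below 0 for 3, under TMM and under total-count, DESeq2 and upper-quartile scaling alike. Counting intervals left out 0 for 6 higher and 3 lower genes, and the share of all genes compared for which they did so is not given here. When an assumed biological coefficient of variation of 0.1 was added to the intervals, Tfam, Nrf1 and Dnm1l stayed above 0 and Ppargc1a and Pink1 below 0, and at 0.4 only Ppargc1a left out 0. Exons of Ppargc1a, Ppargc1b, Tfam, Nrf1, Opa1, Mfn1, Mfn2 and Fis1 overlap no other annotated gene. Dnm1l shares 243 bases, 4.67% of its exons, with the antisense gene Gm49521 and Pink1 shares short stretches with microRNA genes, and the use of strand in counting is not given in the sources used here.

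**Figure D2:**
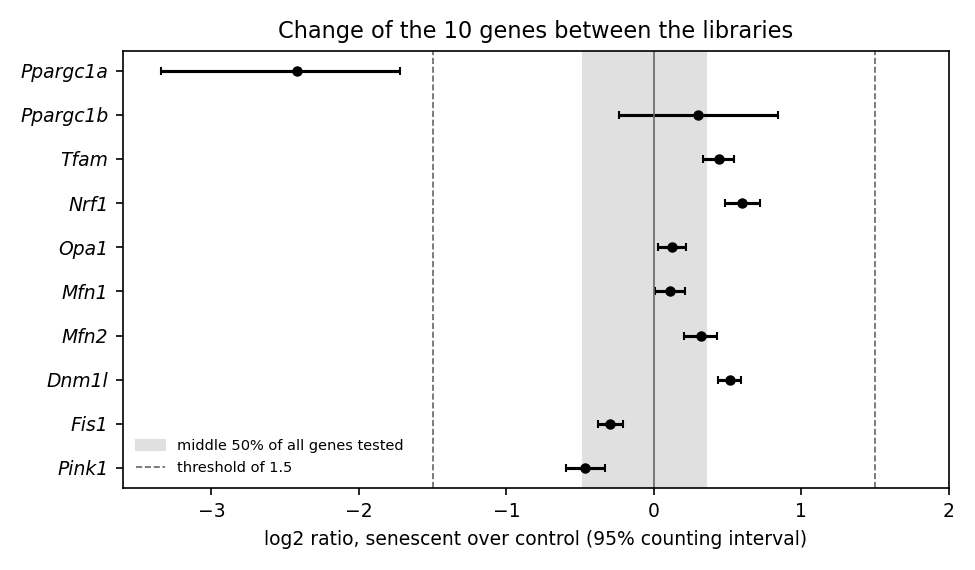
Log2 ratio of senescent over control for the 10 genes with 95% counting intervals, beside the middle 50% of all genes compared (grey, -0.48 to 0.35) and the threshold of 1.5 in either direction (dashed). Ppargc1a lies at -2.42, past the threshold, and the other 9 genes lie between -0.46 and 0.60.

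Ppargc1a (ENSMUSG00000029167, chromosome 5 from 51454250 to 51567726 of GRCm38) fell, with 105 control reads and 16 after peroxide. In CPM the level went from 3.61 to 0.645, which gives a log2 ratio of -2.42 (interval -3.34 to -1.72) or 5.35-fold less (3.29 to 10.2). Only 1.98% of the genes compared had a lower ratio. The value stayed between -2.52 and -2.19 under all scalings, prior counts and filters tried. Ppargc1a is also in a fatty acid term that the study drew from genes past its threshold in these libraries, so its direction there is no independent evidence. Its paralog Ppargc1b (ENSMUSG00000033871) had 59 and 62 reads, and its log2 ratio was 0.30 with an interval from -0.24 to 0.84 that holds 0. Thus the level per length of Ppargc1a was 1.08 times that of Ppargc1b in control cells and 0.156 times in senescent cells. Pprc1, the third coactivator of this family, was the best expressed, with 2821 and 4861 reads and a log2 ratio of 1.01 (0.95 to 1.08), or 0.91 with total-count scaling. Pprc1 was singled out after its value was seen.

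Nrf1 (ENSMUSG00000058440, chromosome 6 from 30047988 to 30153458) had the highest ratio of the 10 genes. Its reads numbered 994 and 1286, and the log2 ratio was 0.60 (0.48 to 0.72), or 1.52-fold. The list of 17 biogenesis regulators, 3 of them among the 10 genes, had 15 members with enough reads, of which 2 were lower past the threshold and none was higher. These were Ppargc1a and Esrrb, an estrogen-related receptor with 21 control and 2 senescent reads, at least 5.97-fold lower against a floor of 3 reads per library. Esrra, the related receptor that partners PGC-1 alpha in many tissues, was the most abundant with 5242 and 5163 reads (0.21, interval 0.15 to 0.26). Gabpa and Gabpb1, which encode subunits of the ETS factor GABP, had log2 ratios of 0.36 and 0.46, and Gabpb2, which encodes another, had -0.14 (interval -0.23 to -0.04). Below the 1.5 threshold but past 2-fold were Pprc1 as higher (above) and, as lower, Ppara, the fatty acid receptor, with 1062 and 438 reads (-1.05, interval -1.21 to -0.89), and Tfeb, the regulator of lysosomal genes, with 491 and 159 (-1.39, interval -1.66 to -1.14). The median of the list was 0.21.

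Tfam (ENSMUSG00000003923, chromosome 10 from 71225464 to 71238280) was counted 1386 times in control cells and 1605 times in senescent cells. Its log2 ratio was 0.44 (0.34 to 0.55), or 1.36-fold, and 0.33 with total-count scaling. None of the 22 genes compared for replication, transcription and packaging of mitochondrial DNA passed the threshold, and their median was 0.07. The mitochondrial helicase Twnk stood at the top with 2133 and 2974 reads (0.71, interval 0.63 to 0.79). The transcription factor Tfb2m (1002 and 1135 reads, 0.41) and the RNA polymerase Polrmt (957 and 902, 0.14) lay beside Tfam, while Tfb1m, a methyltransferase of ribosomal RNA, was the lowest with 240 and 111 reads (-0.88, interval -1.22 to -0.55). Lonp1, the matrix protease that degrades TFAM, had the most reads, 7220 and 6594 (0.10). Protein import, the other supply line of biogenesis, had 38 genes compared and again none past the threshold, with a median of 0.18. The receptors Tomm20 (4609 and 6197 reads, 0.66) and Tomm70a (4197 and 5813, 0.70) were among the higher ones, and Immp1l, of the inner membrane peptidase, was the lowest with 726 and 326 reads (-0.92). Hspa9, the matrix chaperone that pulls in preproteins, led the list with 21144 and 21861 reads (0.28).

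Opa1 and Mfn1, of the fusion machinery, had the ratios closest to 0 among the 10 genes. Opa1 (ENSMUSG00000038084, chromosome 16 from 29579334 to 29654884) had 1908 and 1772 reads, which scaled to a log2 ratio of 0.12 (0.03 to 0.22). Mfn1 (ENSMUSG00000027668, chromosome 3 from 32529465 to 32579239) had 1667 and 1532 reads (0.11, interval 0.01 to 0.21), and total-count scaling brought it to 0.00 and Opa1 to 0.02. Mfn2 (ENSMUSG00000029020, chromosome 4 from 147873599 to 147904704), which also tethers mitochondria to the endoplasmic reticulum, had 1330 and 1413 reads (0.32, interval 0.21 to 0.43). The level per length of Mfn1 was 1.06 times that of Mfn2 in control cells and 0.921 times in senescent cells, so their order turned over, although their intervals overlapped in both. Of 15 fusion genes compared, none passed the threshold and the median was 0.02. Phb2, a prohibitin that stabilises OPA1 at the inner membrane, shows the spread among abundant genes with 7360 and 8231 reads (0.39). Immt, which encodes the cristae protein mitofilin, had the most control reads, 7673, against 6425 (-0.03). Neither of the proteases that cut OPA1 passed the threshold, with 462 and 288 reads for Oma1 (-0.45, interval -0.67 to -0.24) and 6818 and 4841 for Yme1l1 (-0.26, interval -0.32 to -0.21). Miga1, an outer membrane fusion factor, went from 61 to 23 reads (-1.15, interval -1.94 to -0.46).

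The fission genes among the 10 lay on opposite sides of 0. Dnm1l (ENSMUSG00000022789, chromosome 16 from 16312230 to 16358959) had more reads after peroxide, 2927 against 2403, with a log2 ratio of 0.51 (0.44 to 0.59) or 1.43-fold. Fis1 (ENSMUSG00000019054, chromosome 5 from 136953275 to 136966234) had fewer, 1914 against 2754, and its ratio was -0.30 (-0.38 to -0.21). Fis1 stood at 3.48 times the level per length of Dnm1l in control cells and at 1.99 times in senescent cells. The DRP1 receptors Mff (2538 and 2050 reads, -0.08) and Mief1 (1400 and 1616, 0.44) did not pass the threshold. Of 15 fission genes compared, Spire1 alone did, an actin nucleator that acts with the formin Inf2 at sites of division. Spire1 rose from 419 to 1062 reads (1.57, interval 1.41 to 1.74), but had 1.46 with total-count scaling, below the threshold. Inf2 had 2907 and 4489 reads (0.86, interval 0.79 to 0.92). Dnm2 had the most reads of the fission list over both libraries, 3679 and 4296 (0.45, interval 0.39 to 0.52). Movement along microtubules was covered by 11 genes with enough reads, with a median of 0.25. The GTPases Rhot1 (1696 and 1939 reads, 0.42) and Rhot2 (743 and 752, 0.25) and the abundant kinesin Kif5b (10791 and 13767, 0.58) were above 0. Past the threshold were only 2 genes of few reads, Snph, a static anchor, with 24 and 6 reads (-1.63, interval -3.35 to -0.44), and Mgarp with 29 and 1, at least 8.24-fold lower.

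Pink1 (ENSMUSG00000028756, chromosome 4 from 138313409 to 138326307) had 1218 reads before and 753 after peroxide. Its log2 ratio of -0.46 (-0.60 to -0.33), or 1.38-fold less, was the second lowest of the 10 and did not pass the threshold. The list of mitophagy genes had 27 members with enough reads and a median of 0.07, and Bnip3 alone passed the threshold. Bnip3 encodes an outer membrane receptor that binds LC3 directly, without ubiquitin, and it fell from 3933 to 659 reads (-2.35, interval -2.47 to -2.23). Its paralog Bnip3l, also called NIX, had 6654 and 4030 reads (-0.49, interval -0.55 to -0.44). In level per length, Bnip3l and Bnip3 were nearly equal in control cells, at a ratio of 0.993, and Bnip3l was 3.59 times Bnip3 in senescent cells. Fundc1, another such receptor, had 1919 and 1089 reads (-0.59, interval -0.70 to -0.48). Neither passed the threshold, and Phb2, which also serves as a receptor at the inner membrane, was above 0. The adaptors that bridge ubiquitin to LC3 lay on both sides, with 15497 and 29298 reads for Sqstm1 (p62), the gene with most reads of the list (1.15, interval 1.12 to 1.18), 6493 and 8637 for Tax1bp1 (0.64), 7215 and 6703 for Nbr1 (0.12) and 2037 and 1175 for Optn (-0.56). Calcoco2 (NDP52) had 1 and 4 reads and was not compared. The phosphatase Pgam5 had 1770 and 2752 reads (0.87). The values for Bnip3l, Fundc1, Tax1bp1, Nbr1, Optn and Pgam5 were chosen after they were seen.

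**Figure D3:**
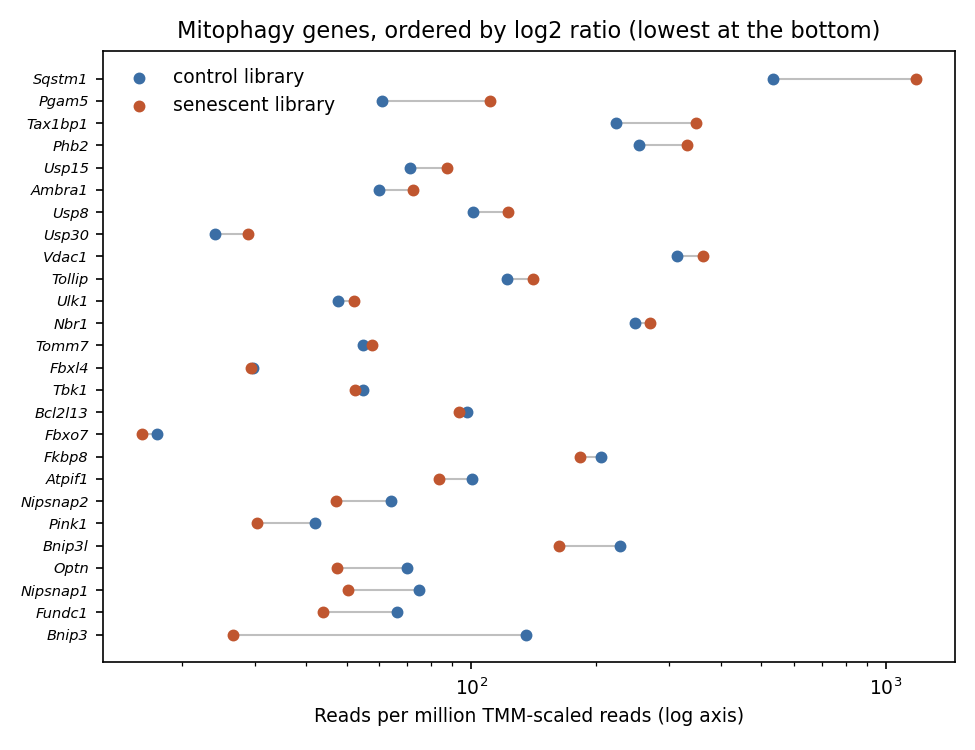
CPM after TMM scaling (log axis) of 26 mitophagy genes with enough reads in the control (blue) and senescent (orange) libraries, 1 point per library, ordered by log2 ratio. Bnip3 at the bottom has the widest gap, from 3933 to 659 reads, and Sqstm1 at the top has 15497 and 29298.

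Genes on both sides of PGC-1 alpha were compared to place the lower Ppargc1a reads. Of 17 genes for enzymes and factors that act on PGC-1 alpha or its gene, none passed the threshold and the median was 0.33. The AMPK subunit Prkaa1 had 2502 and 2684 reads (0.33), the deacetylase Sirt1 378 and 405 (0.33), and the corepressor Nrip1, also called RIP140, was the highest with 944 and 1455 (0.85, interval 0.73 to 0.97). Foxo1, a factor of the fasting response, was the lowest with 683 and 411 (-0.50, interval -0.68 to -0.32). Hnf4a, which PGC-1 alpha coactivates in liver, had the most reads of them, 8187 and 7705 (0.14). Of 16 liver genes known to respond to PGC-1 alpha, 14 had enough reads. The median was -0.47, with 2 lower past the threshold and none higher. Pdk4, a kinase that limits pyruvate oxidation, was among these and fell from 217 to 27 reads (-2.74, interval -3.41 to -2.20). The interval lay below 0 for 10 of the 14 and above 0 for 2, Esrra and Tfam. Counting intervals also left out 0 for most of the 17 upstream genes, above it for 14 and below it for 1. Among the 38 import genes they lay above 0 for 20 and below 0 for 12. The share over all genes compared is not given here, so the 10 of 14 cannot be weighed against it. Cpt1a, which admits fatty acids to mitochondria and had the most reads of these genes over both libraries, had 13045 and 7971 (-0.48, interval -0.52 to -0.44). Gpx1, with 10535 and 8493 reads (-0.08), had more than Cpt1a in the senescent library. The antioxidant enzyme Sod2 had 2254 and 1533 reads (-0.33), and Ucp2, an inner membrane carrier, 1445 and 502 (-1.29, interval -1.45 to -1.15). The gluconeogenic genes Pck1 (1 and 4 reads) and G6pc (8 and 4) were almost silent in both libraries. These genes also answer to other factors of the list, such as the Ppara product. They were chosen from general knowledge, but with earlier results of these data known, so their median is no independent evidence.

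Counted once each and without the 10 genes, 131 genes of biogenesis, mitochondrial DNA, import, fusion, fission, movement and mitophagy had enough reads. Of these, 1 (0.763%) was higher past the threshold and 4 (3.05%) were lower, namely Spire1 and, among the lower ones, Bnip3, Esrrb, Mgarp and Snph. Over all genes compared the shares were 2.71% and 5.60%, and over the 11093 genes with at least as many reads as the least covered of the 10 they were 1.22% and 3.31%. Their median log2 ratio was 0.10 with a middle 50% between -0.25 and 0.36, and 72.5% of them were within 1.5-fold, against 64.3% of all genes compared and 71.6% of those 11093. These shares are descriptions, and nothing particular to the pathway was tested. Of the 10 genes, 8 were within 1.5-fold.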

How the data were processed

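Poly(A) RNA of control and senescent AML12 cells was sequenced as 1 library per condition, each from 3 pooled samples. The authors deposited raw read counts per gene, listed by Ensembl identifier. Per the labels, the submitters' processing notes name CASAVA, STAR, DESeq2, edgeR and the build mm10, without roles. The counting tool, annotation and use of strand are not given in the sources used here. Columns were assigned by the initials of the sample titles, Old and Young. Of 35275 genes, 34490 were paired with a symbol, and GENCODE M21 (GRCm38, the same assembly as mm10) gave positions and exon lengths.

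Counts were scaled with TMM (edgeR 4.0.16, R 4.3.3). Log2 ratios used a prior count of 1 in proportion to library size, and intervals and plots were made in Python 3.11.15 with scipy 1.17.1 and matplotlib 3.10.9. With 1 library per condition no test of edgeR or DESeq2 could be run, and no p-value is given. The calculation was tested on simulated data. Shared sequence was searched with blastn at 95% identity over at least 100 bases. The 10 genes, the other lists and the threshold were chosen with earlier results of these data known. The log2 ratio of 1.5 came from the study's methods, which also required a significant p-value. Here a counting interval without 0 and at least 10 reads were required instead. Named by rule were the 10 genes, every list gene past the threshold and the gene with most reads of each list, and all other genes named were chosen after their values were seen. Alternatives were total-count, DESeq2 1.42.0 and upper-quartile scaling, prior counts of 0.125 and 5, at least 1 or 100 reads, thresholds of 2-fold and 1.5-fold, and assumed coefficients of variation of 0.1 and 0.4. Each list was described by counts and median only, and values of some list genes are not reported here.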

Additional observations from a re-analysis of the deposited data

How the results depend on the processing

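Ppargc1a was the only one of the 10 genes past the threshold of 1.5 under every scaling, prior count, read filter and assumed coefficient of variation, and with a threshold of 1. With a 1.5-fold threshold 2 of the 10 passed, Ppargc1a and Nrf1, and total-count (0.49) and upper-quartile scaling (0.56) took Nrf1 below 1.5-fold. Over all 10 lists 8 genes passed, against 5 with at least 100 reads (without Esrrb, Mgarp and Snph), 14 with a threshold of 1 and 45 at 1.5-fold. Total-count scaling removed Spire1, a prior count of 5 removed Snph, and a coefficient of variation of 0.4 removed both. Over all genes 1195 passed, against 536 with at least 100 reads, 2167 with a threshold of 1, 4315 at 1.5-fold and 793 with a coefficient of variation of 0.4. The median of the 10 genes, 0.21, was 0.10 with total-count scaling. No ratio of the 10 changed its sign, but total-count and upper-quartile scaling each put 0 inside the intervals of Opa1 and Mfn1. No paired analysis was possible because each condition has 1 library. Depth limits what can be said of the coactivators Ppargc1a and Ppargc1b, and no setting replaces replicates, which these pooled libraries lack.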

Other observations

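Reads on the mitochondrial genome, whose transcription TFAM supports, were spread very unevenly over genes that are transcribed together. The level of mt-Co1 was 8262 RPKM (scaled reads per kilobase of exon) in control cells and 8176 in senescent cells, whereas mt-Co2 had 54.7 and 52.7, mt-Co3 53.4 and 34.6, and mt-Atp6 30.5 and 23.4. For the last 3 of these, a nuclear gene identical over most of their length had more reads than they did. The nuclear copies of mt-Co1 had fewer reads than mt-Co1, with 371189 and 313280, but were less alike. Gm29216, the one with most reads (693 and 636), matched 31.3% of mt-Co1 in its longest match. Gm13340, with 112 and 93 reads, matched its whole length at 97.6% identity. Gm28661, identical to mt-Co2 over 681 bases, had 1288 and 1016 reads beside 1089 and 894 on mt-Co2. Gm28437, identical to mt-Co3 over 783 bases, had 1834 and 1102 beside 1218 and 672, and Gm10925, identical to mt-Atp6 over 678 bases, had 1756 and 1052 beside 604 and 396. How reads that fit several places were counted is not given in the sources used here, so the split is uncertain, and its part in these levels was not tested. The 12 mitochondrial protein genes compared had a median log2 ratio of -0.04, from -0.63 for mt-Co3 to 0.91 for mt-Nd4l, which had 35 and 57 reads, and none passed the threshold. The split of reads is uncertain for mt-Nd4l too, as Gm10222, identical to it over 294 bases, had 28 and 49 reads. It is also so for mt-Nd3, with 158 and 118 reads, where Gm28438, 99.7% identical over 345 bases, had 273 and 234. The highest ratio after mt-Nd4l was that of mt-Nd2, with 38979 and 57070 reads (0.78, interval 0.76 to 0.80). Gm13339, which matched 49.1% of mt-Nd2 in its longest match, had 9 and 7 reads. The 13 protein genes of the mitochondrial genome, the only ones of that genome found by name here, made up 2.78% of control reads and 2.63% of senescent reads.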
